A study of Mus musculus with 8 samples.

Results

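The genes described are the nuclear-encoded subunits of the mitochondrial respiratory chain and of ATP synthase. They were taken from the table by symbol: names beginning Nduf followed by a, b, c, s or v and a digit, Sdha to Sdhd, names beginning Uqcr, Cox4 to Cox8, and names beginning Atp5. This rule found 84 genes of the 24015 symbols in the table: 35 of complex I, 4 of complex II, 8 of complex III, 20 of complex IV and 15 of complex V. Atp5s and Atp5sl matched by name only, are not structural subunits, and were counted apart. Ndufa4 and its paralog Ndufa4l2 were counted with complex IV, where the Ndufa4 protein is now placed. The rule used no measured value.

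RNA-seq was done on cardiac fibroblasts from wild-type C57BL/6J mice, with a label age of 8 weeks. Cells were taken at day 0, before the differentiation medium, and after 7, 14 or 21 days in it, and the series title names the differentiation as osteogenic. Each of the 4 times had 2 libraries, and no culture was kept for the same days without the medium, so days in culture and the medium cannot be told apart. Nothing in the labels ties the 2 libraries of a time to different cultures or animals. Every p-value therefore covers only the spread between these libraries, which may be technical. The composition of the medium is not given in the sources used here.

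Electrons from NADH enter the respiratory chain at complex I (NADH dehydrogenase) and those from succinate at complex II (succinate dehydrogenase). They pass through ubiquinone to complex III (the cytochrome bc1 complex), through cytochrome c to complex IV (cytochrome c oxidase), and then to oxygen. Complexes I, III and IV pump protons out of the matrix, and the F1 head of complex V makes ATP as protons flow back through its membrane-embedded c-ring. The heart is known for its dense mitochondria, and several complex IV subunits have a second isoform found mainly in heart and skeletal muscle.

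Genes of this machinery are known to carry binding sequences of the factor NRF1 near their starts, so promoters that hold such letters are shown for 5 of the genes whose changes are described below. Promoter windows of 300 bases, 250 before and 50 after an annotated start, came from RefSeq (build GRCm38.p6) and matched 69 member genes with 75 windows. The authors' build is mm9, so these coordinates belong to the RefSeq table and not to the deposited counts. Capitals mark the NRF1 letters, which are GCGCA, any base and then GCGC, read on either strand, and each sequence ends at or before the annotated start.
Atp5g2, c-ring subunit (chr15:102671050-102671119, minus strand): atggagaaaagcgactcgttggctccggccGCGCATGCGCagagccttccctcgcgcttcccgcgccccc
Atp5k, small membrane subunit of complex V (chr5:108434410-108434479, minus strand): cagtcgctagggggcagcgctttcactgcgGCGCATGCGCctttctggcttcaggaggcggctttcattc
Sdha, flavoprotein of complex II (chr13:74350256-74350325, minus strand): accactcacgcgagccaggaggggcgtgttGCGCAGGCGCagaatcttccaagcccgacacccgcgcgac
Sdhd, membrane anchor of complex II (chr9:50603889-50603958, minus strand): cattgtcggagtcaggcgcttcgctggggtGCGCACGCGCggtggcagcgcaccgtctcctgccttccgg
Ndufa5, accessory subunit of complex I (chr6:24527677-24527746, minus strand): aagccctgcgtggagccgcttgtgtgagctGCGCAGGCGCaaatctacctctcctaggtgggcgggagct

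The NRF1 letters occurred in 18 of the 75 member windows, or 24.0%, against 4.60% of all 32851 windows in the table. The ETS letters CCGGAAG were in 21.3% of member windows and 8.86% of all, and the YY1 letters AAGATGGC in 16.0% and 2.75%. The TATA letters TATAAA were in 10.7% and 13.6%, and the letters CCAAT in 42.7% and 37.4%. Both strands were read, overlaps between motifs were allowed, and windows were not matched for base composition. Genes with and without the NRF1 letters were both found among the called genes: of 16 tested members with them 14 were higher at day 14 than at day 7, and of 50 without them 47 were, where 25% of all tested genes were higher. At day 7 against day 0, 6 of the 16 and 18 of the 50 were lower, where 27.9% of all tested genes were. A match is a description of the letters in the window and not a bound site.

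Libraries held 13399313 to 21883498 reads in genes and detected 15409 to 16200 genes. Values are normalized read counts, which are reads divided by 1 size factor for each library. A gene was tested when it reached 10 normalized counts in at least 2 of the 8 libraries, and it is called higher or lower at an adjusted p below 0.05 in limma on log2(value + 1) with Benjamini-Hochberg adjustment over 13527 genes. Changes are log2 differences, later minus earlier, with their standard error, and the 5 comparisons share libraries. The counts do not tell whether there were fewer cells of a type or less RNA per cell.

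Of the 84 genes, 80 were tested. Cox8c and Ndufs5 were listed at 0 in all 8 libraries. For Ndufs5, an accessory subunit of a complex whose other 34 subunits here were all tested, only that listing is stated. Cox7b2 had 1 read at day 7 and 1 at day 14. Cox7a1, the heart and muscle form of subunit VIIa, had 15, 13, 19 and 11 reads at days 0, 7, 14 and 21, or 4.27 to 15.2 normalized counts per library. None of the 13 subunits encoded by mitochondrial DNA was matched in the table, and they were not analysed here. Many of these genes have near-identical pseudogenes, and how reads that fit several places, or either strand, were counted is not given, so individual subunit levels are uncertain to that extent.

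Before the medium, all complexes were well represented. Per kilobase of principal transcript, the day 0 level was highest for Atp5b, the catalytic beta subunit of F1, with 13269 normalized counts per kilobase. Cox6a1 with 8455, Cox4i1 with 8379, Atp5g3 with 7444 and Cox8a with 7395 followed, so 3 of the next 4 genes were complex IV subunits and the other a c-ring gene. At day 14 the highest level was that of Atp5e, the small epsilon subunit of the F1 stalk, with 14852 normalized counts per kilobase, followed by Cox4i1 with 12479, Cox6a1 with 10530 and Atp5b with 8524. Reads in the 84 genes made up 0.876% and 0.908% of all gene reads in the day 0 libraries, then 0.693% and 0.704% (day 7), 0.971% and 1.20% (day 14) and 0.836% and 0.713% (day 21).

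**Figure D1:**
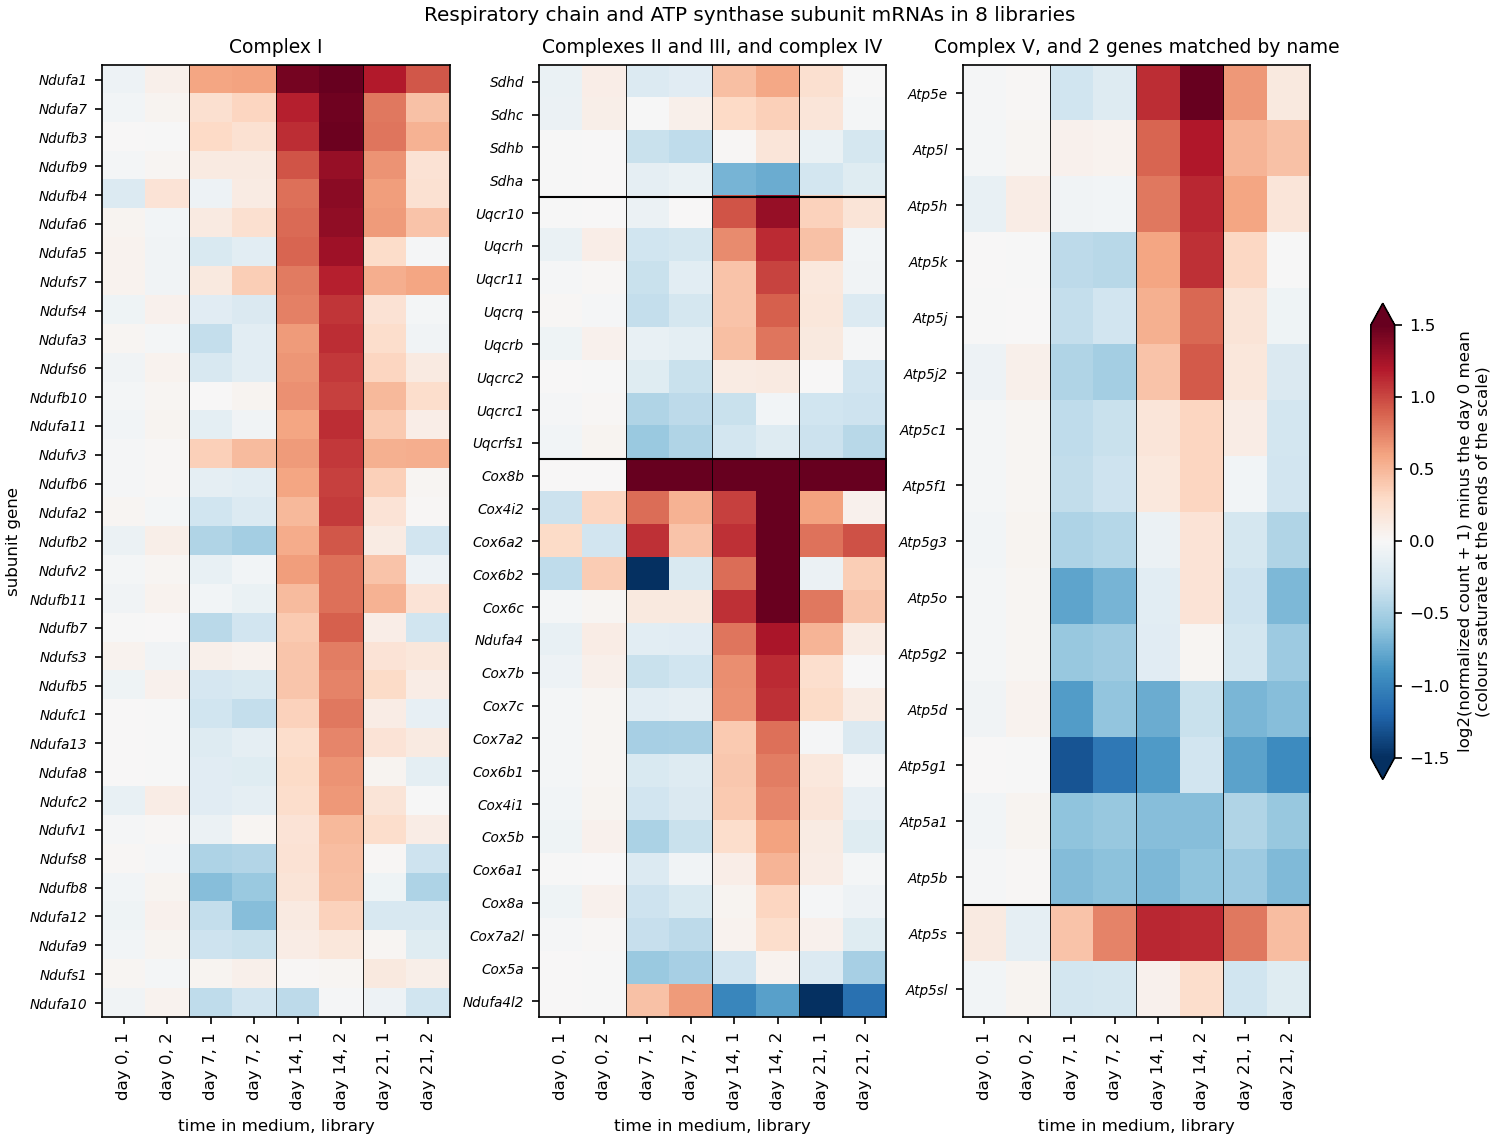
Log2 of the normalized count of 79 of the 80 tested members in each of the 8 libraries minus the gene's day 0 mean, with 1 line of cells per gene, grouped by complex; red is above and blue below day 0. Most complex I genes are red in both day 14 libraries, day 14 replicate 2 most strongly, while Atp5a1, Atp5b and Atp5g1 of complex V are blue in all 6 libraries from medium.

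The highest time mean of 68 of the 80 tested members was at day 14, or 85.0% of them, against 32.7% of all tested genes. The lowest mean of 58 was at day 7, or 72.5% of them, against 18.8% of all tested genes. By complex, 32 of 34 complex I genes had their highest mean at day 14 and 1 at day 0, whereas 10 of 15 complex V genes had it at day 14 and 5 at day 0. Of all 13527 tested genes, 5112 had it at day 0. The difference between the 2 complexes was not tested.

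After 7 days, 25 of the 80 members were lower than at day 0 and 5 were higher, with a median change of -0.22. Of all tested genes, 27.9% were called lower and 27.5% higher, with a median of -0.01, so the count of lower members was close to the share over all genes. The calls were uneven over the complexes. In complex V 12 of 15 genes were lower and none higher (median -0.44), against 6 lower and 2 higher of 34 in complex I (-0.16), 1 lower of 4 in complex II, 2 lower of 8 in complex III (-0.27), and 4 lower and 2 higher of 17 in complex IV (-0.21). The difference between complexes itself was not tested. The total normalized count of complex V was 64332 and 67026 at day 0 and 44036 and 45756 at day 7.

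The fall in complex V reached the F1 head, the c-ring and the peripheral stalk. Of the 3 small membrane subunits, 2 were also lower (median -0.41). Atp5b measured 25064 and 25784 normalized counts at day 0, then 16188 and 16571.5 (day 7), 15912 and 16752 (day 14) and 17470.5 and 16106.5 (day 21). All 6 libraries from medium were below both day 0 libraries, and the change at day 7 was -0.63 ± 0.10 (adjusted p = 0.00019). Atp5a1, the alpha subunit that alternates with beta around the F1 ring, measured 12684 and 13328, then 8563 and 8802, then 8373 and 8379, then 9477 and 8736, with a day 7 change of -0.58 ± 0.09 (adjusted p = 2.0e-04). It had the same order, with both day 0 libraries above the other 6. Atp5d, the delta subunit of the central stalk, measured 4575 and 4916 at day 0 and 2649.9 and 3143 at day 7 (-0.72 ± 0.13, adjusted p = 0.00052), and stayed between 2821 and 3753 later. Atp5o, the oligomycin sensitivity subunit joining the peripheral stalk to F1, measured 1942 and 2037 at day 0 and 1145 and 1230.3 at day 7, a change of -0.74 ± 0.14. Of the F1 genes only Atp5e was not called, at -0.24 ± 0.18.

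The c-ring is encoded by 3 genes, Atp5g1, Atp5g2 and Atp5g3, whose mature proteins are the same and whose targeting sequences differ. All 3 were lower at day 7. Atp5g1 measured 1053 and 1038 normalized counts at day 0, then 426 and 496 (day 7), 582 and 854 (day 14) and 597 and 543 (day 21). Every library from medium was below both day 0 libraries, and its day 7 change of -1.18 ± 0.16 (adjusted p = 3.9e-05) was the largest fall among the called members at that time. Atp5g2, whose promoter is shown above, changed by -0.55 ± 0.12 and Atp5g3 by -0.44 ± 0.11. Per kilobase, Atp5g1 gave 16.2% of the c-ring transcripts at day 0 and 10.5%, 11.4% and 12% at days 7, 14 and 21, while Atp5g2 stayed between 14.5% and 15.2% and Atp5g3 gave 68.9% and then 72.9% to 74.5%.

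**Figure D2:**
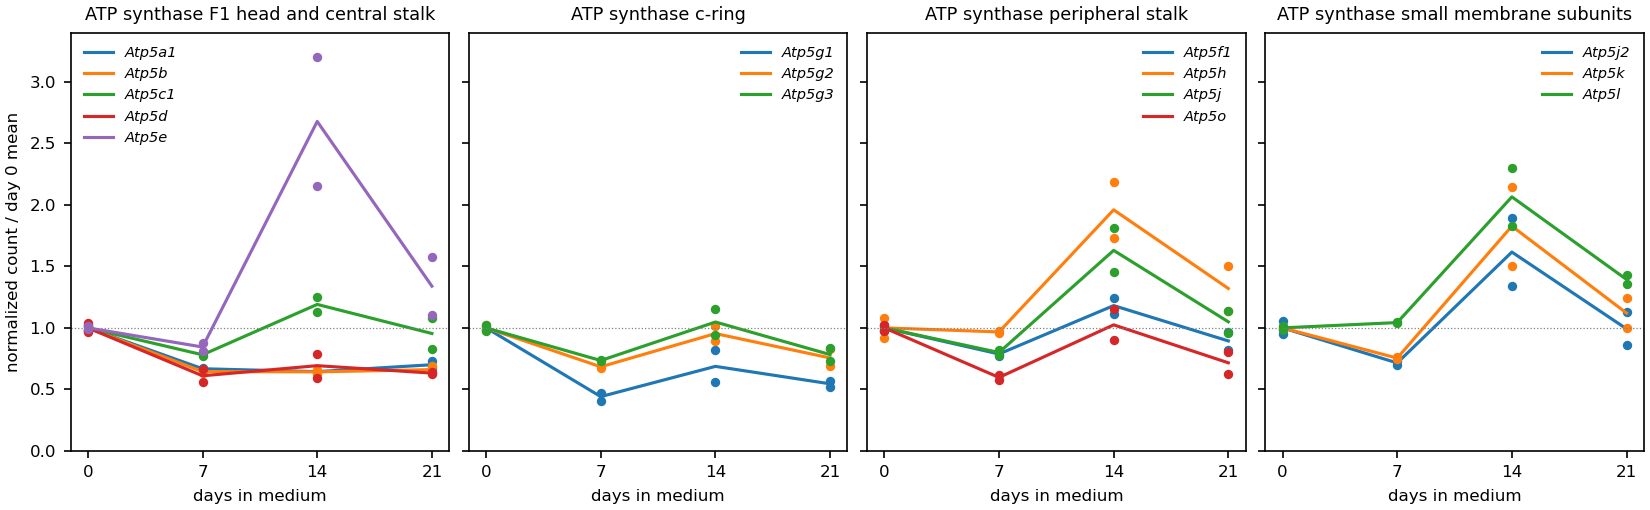
Normalized counts of complex V genes divided by the gene's day 0 mean, in each of the 8 libraries, against days in medium; points are libraries and lines join the means of the 2 libraries of a time. Atp5a1, Atp5b, Atp5d and Atp5g1 drop by day 7 and stay below day 0, while Atp5e is highest at day 14, where its normalized counts before the division were 5031 and 7474.

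In the other complexes the day 7 calls fell on single subunits. Uqcrfs1, the Rieske iron-sulfur protein of complex III, measured 1622 and 1710.1 at day 0 and 1129.5 and 1214 at day 7 (-0.51 ± 0.09, adjusted p = 0.00058), and Uqcrc1, a core protein of the same complex, changed by -0.42 ± 0.10. None of the 5 small complex III subunits was called. Cox5a, a matrix-side subunit of complex IV, measured 2143 and 2117 at day 0 and 1443 and 1511 at day 7, a change of -0.53 ± 0.12. Ndufb8, an accessory subunit in the membrane arm of complex I, measured 1287 and 1370.2 and then 854 and 905, a change of -0.59 ± 0.13, and Ndufa12, Ndufb2, Ndufs8, Sdhb, Cox7a2 and Cox5b were also called lower.

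The genes that were higher at day 7 were Ndufa1, Ndufv3, Ndufa4l2, Cox8b and, by name only, Atp5s. The calls of Cox8b are given no weight, for the reason stated with its values below. It nevertheless stays in this count and in those of higher members at day 14 and day 21 against day 0 and at day 14 against day 7. Ndufa1, a small membrane-arm subunit of complex I, measured 804 and 894 normalized counts at day 0, then 1273.5 and 1294 (day 7), 2287 and 2890.3 (day 14) and 1939 and 1616 (day 21). Both libraries of each later time were above both of day 0, and the change was 0.60 ± 0.13 at day 7 (adjusted p = 0.0015), 1.60 ± 0.13 at day 14 and 1.06 ± 0.13 at day 21. Ndufv3, a small subunit of the NADH-binding module, rose by 0.41 ± 0.12, a call lost without day 0 replicate 1 (0.39, adjusted p = 0.075), day 0 replicate 2 (0.44, adjusted p = 0.052) or day 7 replicate 2 (0.35, adjusted p = 0.10).

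The day 7 count of lower members depended on single libraries. It was 12 without day 0 replicate 2, 14 without day 7 replicate 1 and 15 without day 7 replicate 2, and 36 without either day 14 library. The count of higher members was 3 without day 0 replicate 1, 2 without day 0 replicate 2, 2 without day 7 replicate 2, and 8 without either day 14 library. In complex V the 12 lower genes became 8 without day 0 replicate 1 and 7 without day 0 replicate 2, day 7 replicate 1 or day 7 replicate 2. Atp5a1, Atp5b, Atp5d, Atp5o, Atp5g1, Atp5g2 and Atp5g3 stayed called whichever library was left out. The calls of Ndufa12, Ndufb2, Ndufs8, Sdhb, Cox5b, Cox7a2, Cox7a2l and Atp5c1 did not, with adjusted p-values up to 0.16 for Cox5b without day 7 replicate 1.

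From day 7 to day 14, 70 of the 80 members were higher and 2 lower, with a median change of 0.80. Among all tested genes 25% were called higher and 27% lower, with a median of 0.00. By complex, 32 of 34 genes were higher in complex I (median 0.86), 3 of 4 in complex II, 7 of 8 in complex III (0.86), 14 of 17 in complex IV (0.82) and 12 of 15 in complex V (0.62). The counts of higher members ran from 61 to 73 as each library was left out in turn. These increases moved with transcript length over the whole table, and a count with that trend removed is given with the length values below.

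As deposited, the small and accessory subunits led. In complex I 26 of 27 accessory genes were higher (median 0.95, against 0.53 for the core genes). With the length trend described below removed, 12 of the 27 were higher, or 16 with the principal transcript (medians 0.21 and 0.24). The core medians were then 0.06 and 0.12, with 0 higher and 1 lower of the 7 core genes, or 1 and 0. Ndufa5, an accessory subunit of the peripheral arm, measured 272 and 284 normalized counts at day 7 and 582 and 767 at day 14 (1.26 ± 0.15, adjusted p = 5.9e-05), with both day 14 libraries above the other 6. Ndufs4, an accessory subunit needed for a stable complex I and mutated in Leigh syndrome, measured 797 and 766 and then 1513 and 1875, a change of 1.11 ± 0.12. Ndufb2 rose by 1.23 ± 0.15. Of the 7 core genes that carry the flavin and iron-sulfur clusters, 6 were higher but by less: Ndufv2 by 0.80 ± 0.14, Ndufs8 by 0.79 ± 0.12 and Ndufs7 by 0.72 ± 0.13, while Ndufv1 rose by 0.37 ± 0.11. The Ndufv1 call was lost without day 7 replicate 1 (0.31, adjusted p = 0.12) and without day 14 replicate 2 (0.24, adjusted p = 0.094). The core gene not called was Ndufs1, the largest iron-sulfur subunit, at 1071 and 1102 at day 7 and 1060.5 and 1069 at day 14 (-0.03 ± 0.09).

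Complex II was divided. Sdha, the flavoprotein that oxidizes succinate, measured 4186 and 4236 normalized counts at day 0, then 3829.5 and 3937 (day 7), 2596 and 2521 (day 14) and 3474 and 3723 (day 21). Both day 14 libraries were below the other 6, and the change from day 7 was -0.60 ± 0.09 (adjusted p = 0.00019). The membrane anchor Sdhd measured 1366 and 1399.7 at day 7 and 2155 and 2339 at day 14 (0.70 ± 0.11, adjusted p = 0.00032), and the iron-sulfur subunit Sdhb changed by 0.45 ± 0.10. Sdha thus fell where the genes of its 3 partner subunits rose, since Sdhc was also called (0.28 ± 0.10). The Sdhc call was lost without day 7 replicate 1 (0.24, adjusted p = 0.20), day 7 replicate 2 (0.32, adjusted p = 0.094) or day 14 replicate 2 (0.25, adjusted p = 0.098). Sdha is among the longest transcripts here, and its fall was also called after the length trend was removed, whereas Sdhb then changed sign.

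In complex III the small subunits rose more than the core proteins, and in complex IV the ubiquitous subunits rose. Uqcrh, the hinge protein of complex III, measured 1573 and 1604 at day 7 and 3149 and 4212 at day 14, a change of 1.20 ± 0.16 (adjusted p = 0.00012), and Uqcr10 rose by 1.17 ± 0.12. All 5 small complex III subunits were called higher, while the core protein Uqcrc1 was not (0.23 ± 0.10) and Uqcrfs1 changed by 0.28 ± 0.09. The Uqcrfs1 call was lost without day 7 replicate 1 (0.22, adjusted p = 0.20), day 7 replicate 2 (0.33, adjusted p = 0.069) or day 14 replicate 2 (0.23, adjusted p = 0.089). All 11 ubiquitous complex IV subunits were called higher, and with the length trend described below removed 4 were higher and 3 lower, or 5 and 3 with the principal transcript. Cox6a1, Cox8a and Uqcrfs1 then changed sign, at -0.25, -0.24 and -0.27 with the longest transcript. Among the ubiquitous subunits Cox7b measured 1027 and 1048 at day 7 and 2098 and 2813 at day 14 (1.23 ± 0.13, adjusted p = 4.2e-05), and the change was 0.43 ± 0.13 for Cox6a1, a call lost without day 7 replicate 1 (0.35, adjusted p = 0.12) or day 14 replicate 2 (0.23, adjusted p = 0.11).

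Complex V split within itself. Atp5e measured 1896.5 and 2045 normalized counts at day 7 and 5031 and 7474 at day 14, a change of 1.64 ± 0.18 (adjusted p = 4.2e-05), and both day 14 libraries were above the other 6. The small membrane subunits Atp5k (1.25 ± 0.16) and Atp5j2 (1.16 ± 0.16) rose with it. The catalytic pair did not follow: the change was 0.00 ± 0.10 for Atp5b and -0.05 ± 0.09 for Atp5a1, and 0.17 ± 0.13 for Atp5d. Atp5o rose by 0.77 ± 0.14, back to 1789 and 2287 normalized counts against 1942 and 2037 at day 0.

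Against day 0, 56 of the 80 members were higher at day 14 and 7 lower (median 0.62), where 35.2% of all tested genes were higher and 35.6% lower (median 0.00). Complex I had 29 higher and none lower (13 and 7 with the length trend removed, or 14 and 6 with the principal transcript), led by Ndufa1 (1.60 ± 0.13), Ndufa7 (1.31 ± 0.13) and Ndufb3 (1.29 ± 0.13). Complex V had 6 higher and 4 lower: Atp5e (1.39 ± 0.18), Atp5l and Atp5h were its largest rises, and Atp5b (-0.64 ± 0.10), Atp5a1 (-0.63 ± 0.09), Atp5g1 (-0.57 ± 0.16) and Atp5d (-0.54 ± 0.13) were lower. Complex II had Sdhd and Sdhc higher and Sdha lower (-0.72 ± 0.09, adjusted p = 1.1e-05), complex III 5 higher and Uqcrfs1 lower (-0.23), and complex IV 13 higher and Ndufa4l2 lower. The 13 include Cox8b, whose calls are given no weight. The complex IV count was 8 without day 14 replicate 2. The Uqcrfs1 call was lost in edgeR, DESeq2 and TMM scaling (adjusted p of 0.073 to 0.082) and without either day 0 library, either day 7 library or day 14 replicate 1 (adjusted p of 0.072 to 0.21). The Sdhc call was lost without day 0 replicate 1 (0.23, adjusted p = 0.15).

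**Figure D3:**
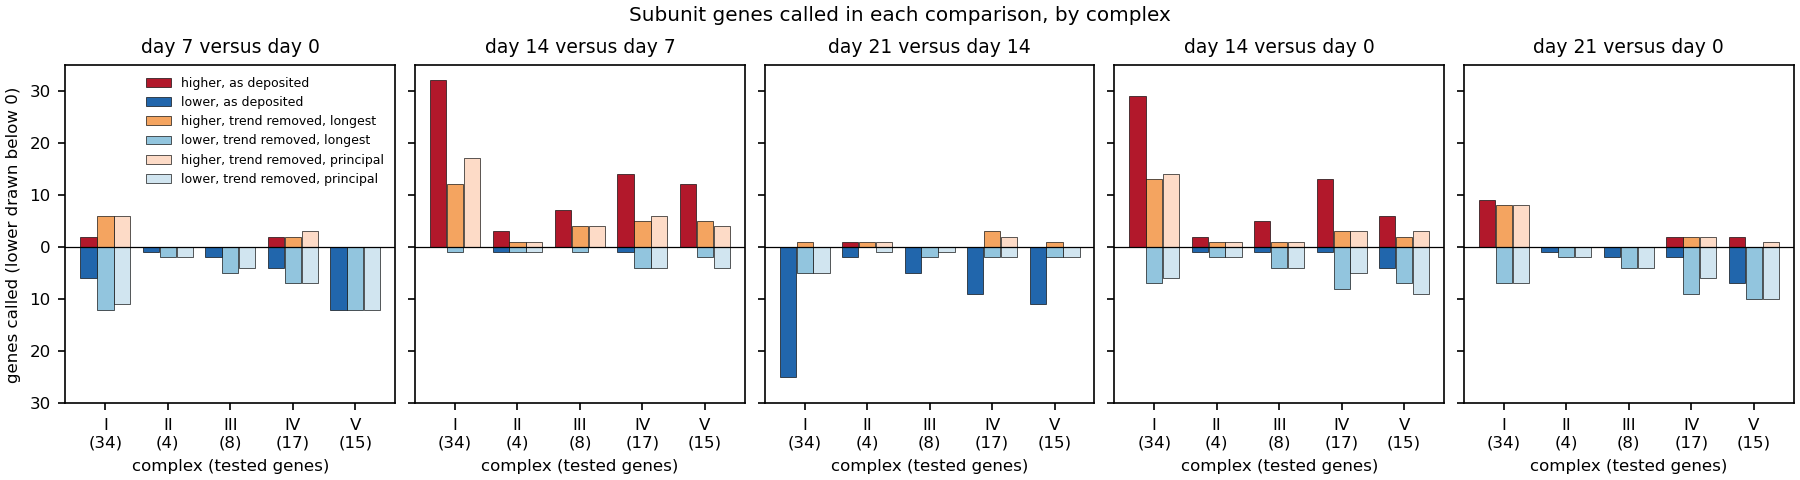
Number of tested genes of each complex called higher (above 0) or lower (below 0) in each of the 5 comparisons, as deposited and after removal of the length and GC trend with either transcript length. As deposited, complex I has 32 genes higher at day 14 against day 7 and 12 or 17 after the removal, while complex V has 12 lower at day 7 in all 3 versions.

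The changes from day 7 to day 14 ran with transcript length. Length here is that of the gene's longest protein-coding transcript in GENCODE M21, and the members are short: their median was 891.5 bases against 3094.5 for all tested genes with a length. Over all genes the change fell by 0.38 for each doubling of length, and over the members by 0.29. Of 46 members under 1000 bases 43 were called higher, with a median of 0.98, and of the 34 longer ones 27 were, with a median of 0.53. All tested genes of at least 500 and under 1000 bases had a median of 0.81, and the 40 members of that length 0.95. From day 14 to day 21 the slope was of opposite sign, at 0.25 over all genes and 0.20 over the members, and from day 0 to day 7 it was -0.01 over all genes and -0.18 over the members, or -0.06 over the members with the principal transcript. Each slope is a description over genes that share libraries, and what produced it was not tested.

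**Figure D4:**
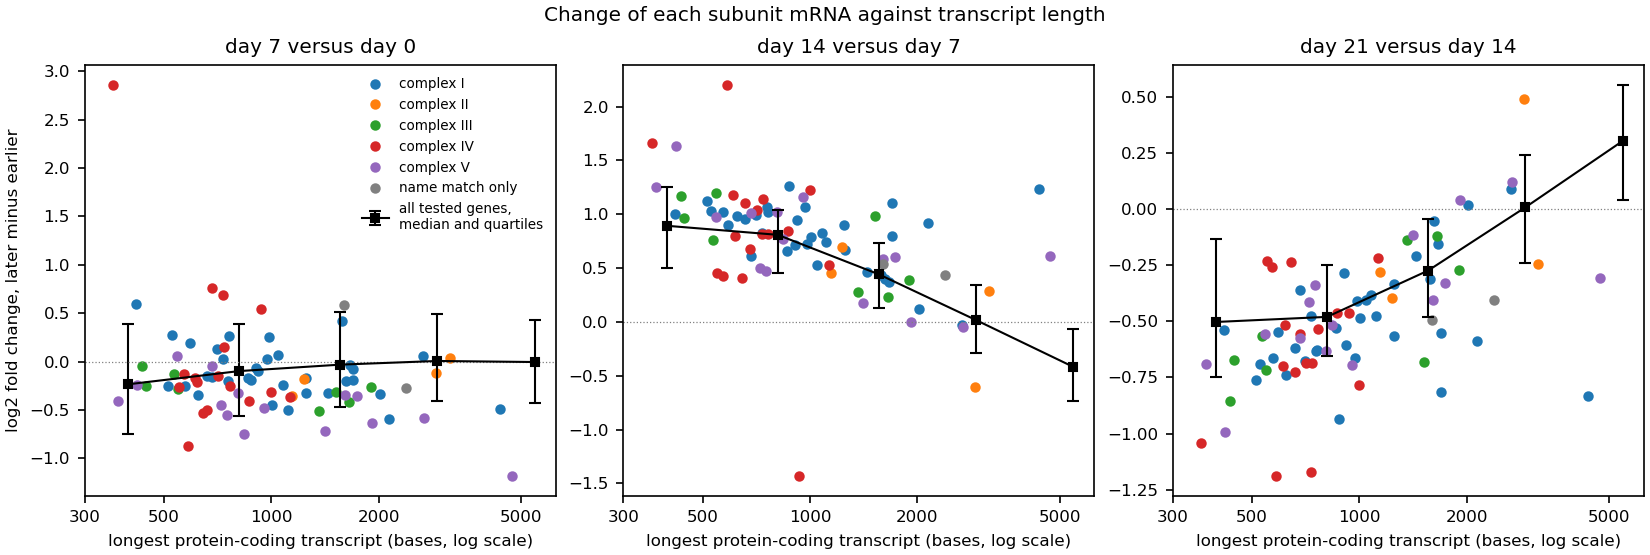
Log2 change of each tested subunit against the length of its longest protein-coding transcript (log scale) in 3 comparisons, colored by complex; black squares and bars are the median and quartiles of all tested genes in 5 length ranges. At day 14 against day 7 most members lie near the falling black line, with Sdha and Ndufa4l2 below it.

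With a smooth trend on length and GC content removed from every comparison, 27 of the 80 members were higher at day 14 than at day 7 and 9 lower (median 0.15), where 18.5% of all genes were higher and 21.4% lower. With the length of the principal transcript in place of the longest, 33 were higher and 9 lower (median 0.20), where 19.2% and 21.5% of all genes were. The count of higher members was thus 70 as deposited and 27 or 33 with the trend removed. With the longest transcript complex I had 12 higher and 1 lower, complex III 4 and 1, complex IV 5 and 4, and complex V 5 and 2. With the principal transcript these were 17 and 0, 4 and 0, 6 and 4, and 4 and 4. Of the 70 members called higher as deposited, 25 were also called higher under both lengths, 12 of them in complex I, 1 in II, 4 in III, 5 in IV and 3 in V. Among these were Ndufa5 (0.56 and 0.64), Ndufs4 (0.56 and 0.65), Uqcr10 (0.38 and 0.43), Cox7b (0.40 and 0.48) and Atp5e (0.84 and 0.88), and in the other direction the call of Sdha held (-0.65 and -0.57). The length definition matters for genes with an unusually long annotated transcript: Atp5g1 was at 0.92 with the longest and -0.05 with the principal transcript.

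At day 7 the removal raised the count of lower members from 25 to 39 with the longest and 37 with the principal transcript, where 31.0% and 30.8% of all genes were lower, and complex V had 12 of 15 lower each time. Members called higher at day 7 became 9 or 10, where 30% and 29.9% of all genes were. At day 14 against day 0 there were 20 higher and 28 lower with the longest transcript, where 34.6% and 36.4% of all genes were, and 22 and 26 with the principal one, where 34.8% and 36.3% were. Complex V then had 2 higher and 7 lower, or 3 and 9, complex IV 3 and 8, or 3 and 5, and complex III 1 and 4 with either length.

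From day 14 to day 21, 53 of the 80 members were lower and 1 higher (median -0.52), where 14.3% of all tested genes were lower and 20.2% higher (median 0.02). Genes with large rises at day 14 were among those that fell. Atp5e measured 3673 and 2579 at day 21 (-0.99 ± 0.18, adjusted p = 0.002), Ndufa5 386 and 315 (-0.94 ± 0.15), Uqcr10 1202 and 1078 (-0.85 ± 0.12) and Ndufs4 1042 and 876 (-0.82 ± 0.12), each with both day 21 libraries below both of day 14. The member that rose was Sdha (0.49 ± 0.09, adjusted p = 0.0019), and its 2 day 21 libraries lay above both of day 14 and below the other 4. The largest called fall was that of the low-count isoform Cox4i2, from 21.9 and 43.2 to 16.0 and 10.7 (-1.17 ± 0.41, adjusted p = 0.042). That call was lost without either day 7 library (adjusted p of 0.06 and 0.058), without day 14 replicate 2 (-0.70, adjusted p = 0.32), without day 21 replicate 2 (-0.90, adjusted p = 0.22) and with the trend removed (adjusted p of 0.16 and 0.15). By complex, 25 of 34 were lower in complex I, 2 of 4 in II, 5 of 8 in III, 9 of 17 in IV and 11 of 15 in V. With the trend removed there were 11 lower and 6 higher, where 9.86% and 16.3% of all genes were, or 12 and 3 with the principal transcript, where 10% and 16.6% were. The count of lower members was 28 without day 14 replicate 2 and 16 without day 21 replicate 2, in complex I 13 and 7, and in complex V 4 and 3. Complex II had 0 lower without either of these, 1 without any one of the day 0 or day 7 libraries and 3 without day 21 replicate 1. Complex III had 1 without day 21 replicate 2, and complex IV 5 without that library and 15 without day 14 replicate 1.

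Within day 14, replicate 2 was above replicate 1 in 78 of the 80 members, against 49.1% of all tested genes. The median gap over the members was 0.35 on the log2 scale, and the gap between the 2 libraries fell by 0.15 for each doubling of length over all genes. Within day 21, replicate 2 was above replicate 1 in 9 of 80, with a median of -0.22 and a slope of 0.07. Replicate 1 was above replicate 2 there in 71 of the 80 members and in 47.3% of all tested genes. Relative to the day 0 mean, the median over the members was -0.24 and -0.19 in the day 7 libraries, 0.42 and 0.81 at day 14, and 0.19 and -0.03 at day 21, so day 14 was above every other library in that median with either replicate.

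At day 21 against day 0, 14 members were higher and 12 lower (median 0.10), where 29.8% of all tested genes were higher and 29.5% lower. Both shares of the members were below those over all genes, and as deposited most calls in complex I were higher and most in complex V lower. Complex I had 9 higher and none lower (8 and 7 with the length trend removed under either length, and 6 and 2 with scaling to total reads), among them Ndufa1 (1.06 ± 0.13), Ndufb3 (0.66 ± 0.13), Ndufa7 (0.62 ± 0.13) and the core subunit Ndufs7, at 674 and 628 normalized counts at day 0 and 947 and 981 at day 21 (0.57 ± 0.13). Complex V had 7 lower and 2 higher: all 3 c-ring genes and Atp5a1, Atp5b, Atp5d and Atp5o were lower, by 0.36 for Atp5g3 to 0.88 for Atp5g1 on the log2 scale, and Atp5l and Atp5h were higher. Complex III had Uqcrfs1 and Uqcrc1 lower, complex IV 2 higher (Cox6c, and Cox8b, which is given no weight) and 2 lower, and complex II Sdha lower (-0.23 ± 0.09). The difference between complexes I and V was not itself tested.

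Single libraries bore on these counts too. Complex V had 4 lower genes without day 0 replicate 2 or day 21 replicate 2 and 9 without day 21 replicate 1, with Atp5g2, Atp5g3 and Atp5o losing their calls in the first 2 cases (adjusted p of 0.058 to 0.11). Complex I had 6 higher without day 0 replicate 1 and 5 without day 21 replicate 1. Over all members the higher count was 8 without day 21 replicate 1, and the lower count 5 without day 0 replicate 2 and 7 without day 21 replicate 2. The Sdha call was lost without either day 0 or either day 7 library, or day 21 replicate 1 (adjusted p of 0.08 to 0.16), that of Atp5h without day 0 replicate 1 (0.28, adjusted p = 0.24), either day 7 library or day 21 replicate 1 (0.19, adjusted p = 0.32), and that of Uqcrc1 without any 1 of the day 0 or day 21 libraries (adjusted p of 0.053 to 0.11). Uqcrfs1 lost its call without day 0 replicate 2 (-0.33, adjusted p = 0.051). Scaling to total reads, which moved the median of all genes by -0.11, gave 10 higher and 16 lower. With the length trend removed 10 were higher and 33 lower, where 31.9% and 32.2% of all genes were, or 11 and 29 with the principal transcript, where 31.9% and 32.3% were. Complex V then had 10 lower with either length. The 2 lower genes of complex IV, Cox5a and Ndufa4l2, became 1 without either day 0 library or day 21 replicate 2.

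The tissue isoforms of complex IV stayed far below the ubiquitous forms at all 4 times. Per kilobase, Cox4i2, the form of subunit IV known from lung, made up 0.172% to 0.358% of its pair with Cox4i1, Cox6a2 0.0894% to 0.221% of its pair with Cox6a1, Cox6b2, known from testis, 0.532% to 1.45% of its pair with Cox6b1, and Cox7a1 0.757% to 1.04% of its pair with Cox7a2. At these counts of a few to 54.9 per library, changes within such genes carry a standard error of up to 0.50. Cox6b2 rose from day 7 to day 14 (2.20 ± 0.48, adjusted p = 0.0025), from 4.56 and 12.5 to 27.3 and 54.9 normalized counts.

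Cox8b, the heart and muscle form of subunit VIII, was listed at 0 in both day 0 libraries and measured 7.29 and 5.35 normalized counts (day 7), then 16.4 and 29.2 (day 14) and 9.61 and 10.7 (day 21). All 6 libraries from medium held reads and neither day 0 library did. With 3 reads over the day 0 group as the limit that a count of 0 allows, it was at least 4.25-fold higher at day 7, at least 14.8-fold at day 14 and at least 6.86-fold at day 21, a limit that covers counting error only. It remained at most 0.745% of its pair with Cox8a. Cox8b passed the low-value filter only through its day 14 and day 21 libraries, so it had to differ from day 0. Its calls are given no weight, though they stay in the counts of higher members above.

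Ndufa4l2, a paralog of Ndufa4 known as a hypoxia-induced gene, moved against most other members up to day 14. It measured 202 and 201 normalized counts at day 0, then 273 and 316 (day 7), 102 and 114.5 (day 14) and 66.2 and 92.4 (day 21). Both day 7 libraries were the highest of the 8, and the 4 later libraries were below all of day 0 and day 7. The rise at day 7 was 0.54 ± 0.18 (adjusted p = 0.020), a call lost without day 0 replicate 1 (adjusted p = 0.079), day 0 replicate 2 (adjusted p = 0.084) or day 7 replicate 2 (adjusted p = 0.15). The fall from day 7 to day 14 was -1.43 ± 0.18 (adjusted p = 7.4e-05), and the further change to day 21 was not called (-0.46 ± 0.18). Day 21 was below day 0 by -1.36 ± 0.18 (adjusted p = 2.9e-05). Ndufa4 itself rose from 1941 and 1936 at day 7 to 3784 and 5086 at day 14 (1.18 ± 0.15), so Ndufa4l2 made up 4.29%, 6.85%, 1.17% and 1.39% of the pair per kilobase at days 0, 7, 14 and 21.

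**Figure D5:**
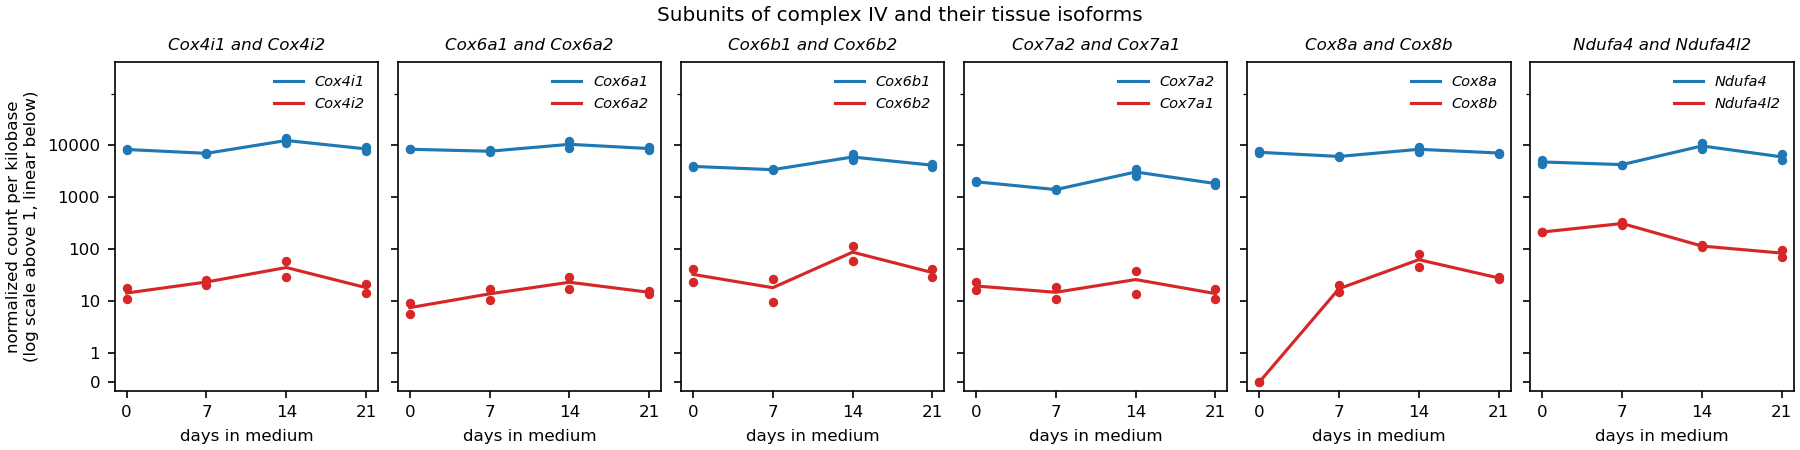
Normalized counts per kilobase of 6 complex IV subunits and their tissue isoforms or paralogs against days in medium, on a scale that is logarithmic above 1 and linear below; points are the 2 libraries of a time and lines join their means. Each isoform stays well below its ubiquitous partner; Cox8b starts at 0, and Ndufa4l2 falls after day 7 while Ndufa4 is highest at day 14.

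Other genes of the pathway, from lists written with earlier results of these data known, are given by their counts. These are to be read against all tested genes, of which 27.9% were lower and 27.5% higher at day 7, 25% higher and 27% lower at day 14 against day 7, and 14.3% lower at day 21 against day 14; no list was tested against these shares. Of 77 tested mitochondrial ribosomal protein genes, whose products translate the subunits encoded by mitochondrial DNA, 27 were lower and 1 higher at day 7 (median -0.23), 64 were higher and none lower at day 14 against day 7 (0.67), and 52 were lower at day 21 against day 14. Mrpl33 (1.47), Mrpl53 (1.30) and Mrpl13 (1.25) rose most. Of 44 assembly factors, which build the complexes without remaining in them, 10 were lower and 6 higher at day 7, and 29 were higher and 1 lower at day 14 (0.59). The copper chaperone Cox17 was among the largest rises (1.16 ± 0.15), and Cox15, needed for heme a synthesis, was the 1 that fell (-0.64). With the longest-transcript trend removed the day 14 medians were 0.27 and 0.24.

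Among 21 electron carriers and feeders, 8 were lower and none higher at day 7 (median -0.30), and 15 were higher and 1 lower at day 14 against day 7 (0.44, or 0.12 with the longest-transcript trend removed). For this list and the next 2, 27.9% of all tested genes were lower and 27.5% higher at day 7. At day 14 against day 7, 25% were higher and 27% lower. Cycs, cytochrome c, changed by -0.50 ± 0.13 and then by 0.45 ± 0.13. Of 19 genes of the tricarboxylic acid cycle, 7 were lower and 2 higher at day 7, and 6 higher and 2 lower at day 14 (0.11, or -0.11 with that trend removed). Cs, citrate synthase, measured 5488 and 6098 normalized counts at day 0, then 3102 and 3159.5 (day 7) and 2136.5 and 2035 (day 14), with changes of -0.89 ± 0.09 and then -0.59 ± 0.09, so that like Sdha it was lowest at day 14. Mdh2, malate dehydrogenase, changed by -0.97 ± 0.10 at day 7. Of 19 biogenesis regulators, 4 were lower and 1 higher at day 7. Pprc1, a coactivator related to PGC-1alpha, fell from 1131 and 1188 to 532 and 590.2 (-1.05 ± 0.12), and Nrf1 by -0.32 ± 0.12. Ppargc1a, PGC-1alpha itself, measured 1.59 and 0 normalized counts at day 0 and 21.9 and 16.0 at day 7.

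Markers of other cell types also differed between the times. Of all tested genes, 27.5% were higher and 27.9% lower at day 7 against day 0, and 25% and 27% at day 14 against day 7. At day 21 against day 14 these shares were 20.2% and 14.3%. Against day 0 they were 35.2% and 35.6% at day 14, and 29.8% and 29.5% at day 21. No marker set was tested against these shares. All 8 macrophage markers were tested. Their summed normalized count was 947 and 1025 at day 0, then 10352 and 8342 (day 7), 18116 and 33415 (day 14) and 17964 and 16989 (day 21). This sum was highest in day 14 replicate 2, the library highest in most subunits. The calls of single markers followed the sum only in part. Of the 8 markers, 3 were higher and none lower at day 14 than at day 7. From day 14 to day 21, 1 was lower and none higher, with a median change of 0.02. At day 7, when most subunits were at their lowest, 7 of the 8 were higher than at day 0. Of 10 cardiomyocyte markers 3 passed the low-value filter and the sum was nearly all Tnnt2, at 1207 and 1134 at day 0 and 22419 and 28771 at day 14. Myh6, which defines adult mouse cardiomyocytes, was at 0 in all 8 libraries, and Myh7 had 1 read. The 8 fat cell markers summed to 1212 and 930 at day 0 and 11504 and 12118 at day 14, with Ucp1 at 0 in all 8 libraries. Only 4 of these markers passed the low-value filter, and all 4 were higher at day 14 than at day 0. The 5 endothelial markers summed to 524 and 571 at day 0 and 343 and 242 at day 14. The 6 skeletal muscle markers summed to 491 and 476 and then 265 and 316, but only 3 of them passed the low-value filter. Of those 3, 2 were higher and 1 lower at day 14 than at day 0 (median 1.27), so the sum does not describe the set. The 8 fibroblast markers summed to 711122 and 704143 at day 0, then 473303 and 499668 (day 7), 358012 and 314454 (day 14) and 461032 and 529935 (day 21), and all 8 were tested. Their members went both ways: against day 0, 4 were higher and 2 lower at day 7 (median 0.66), 3 and 4 at day 14 (-0.20), and 4 and 2 at day 21 (0.80). The part of other cells in the changes of the subunits was not tested.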

How the data were processed

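Per the submitters' processing notes, reads were handled with TopHat2 2.0.11, HTSeq 0.6.1 and DESeq on mm9; no source used here gives the role of each tool, the annotation or the strand setting. The authors deposited 1 table of size-factor normalized read counts, a signal that is proportional to counts within each library. Dividing by the smallest step gave whole reads for 100% of values within 0.01, so reads per library were recovered.

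All 13527 genes with at least 10 normalized counts in 2 or more of the 8 libraries were fitted together with limma 3.58.1 (trend, 4 times, log2(value + 1), R 4.3.3), with Benjamini-Hochberg adjustment per comparison. The fit had 4 residual and 8.16 prior degrees of freedom, and a fold change on this scale understates changes of low genes. It was also run on simulated reads with planted changes, and that outcome is not given here. Alternatives were edgeR 4.0.16 and DESeq2 1.42.0 on the recovered reads, TMM and total-read scaling, a pseudocount of 5, no filter, removal of a spline trend on length and GC, the replicate number as a block, and each library left out. The longest coding transcript was adopted as the length after slopes under other definitions had been seen, and the version with the principal transcript was chosen after seeing the data.

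All members were counted by complex. Named with values were the tissue isoform sets, the catalytic and redox core, up to 3 called members with the largest rise and fall per complex and comparison, up to 2 uncalled ones nearest 0, members not tested, and up to 3 called genes each way in the related lists. Genes named outside this rule, such as Ndufs4 and Cox7b in some comparisons, Nrf1, Cycs and Ppargc1a, were chosen after their values were seen. For 1 member, which stays in the counts of members, the values are not reported here. The members and lists were chosen with earlier results of these data known. Depth limits the isoforms of complex IV with few reads, and intervals and floors cover counting error only.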

Additional observations from a re-analysis of the deposited data

How the results depend on the processing

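With the length and GC trend removed (longest transcript), the counts of members called higher and lower were 9 and 39 for day 7 against day 0, 27 and 9 for day 14 against day 7, 6 and 11 for day 21 against day 14, 20 and 28 for day 14 against day 0, and 10 and 33 for day 21 against day 0. With the principal transcript, a version chosen after seeing the data, they were 10 and 37, 33 and 9, 3 and 12, 22 and 26, and 11 and 29. The cause was not tested. No other setting that kept all libraries moved a count by more than 1.5 times.

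Changes of sign among the named genes are listed where the result was called as deposited or in the changed setting. Those called in neither are left out. For example, all 3 core and Rieske genes of complex III fell from day 14 to day 21 as deposited, with a median of -0.14. With the trend removed that median was 0.09, or 0.06 with the principal transcript. The listed changes of sign came only from these 2 settings, of the 17 tried. With the longest transcript they were, for day 14 against day 7, Atp5g2 -0.025, Atp5g3 -0.25, Cox6a1 -0.25, Cox7a2l -0.087, Cox8a -0.24, Ndufs3 -0.059, Sdhb -0.083, Uqcrc2 -0.059 and Uqcrfs1 -0.27. For day 14 against day 0 they were Atp5g3 -0.69, Atp5o -0.63, Cox6a1 -0.27, Cox6b1 -0.18, Cox7a2 -0.13, Cox7a2l -0.48, Cox8a -0.40, Ndufa9 -0.42, Ndufs1 -0.19, Ndufs8 -0.23, Sdhb -0.43, Sdhd -0.094 and Uqcrc2 -0.34. For day 21 against day 14 they were Atp5g2 0.0032, Atp5g3 0.056, Cox6a1 0.19, Cox8a 0.23 and Sdhb 0.069, and for day 21 against day 0 Cox6b1 -0.20 and Cox7b -0.23. With the principal transcript they were, for day 14 against day 7, Atp5d -0.26, Atp5g1 -0.052, Atp5g2 -0.25, Atp5g3 -0.18, Cox6a1 -0.21, Cox7a2l -0.019, Cox8a -0.20, Sdhb -0.015 and Uqcrfs1 -0.18. For day 14 against day 0 they were Atp5c1 -0.31, Atp5g3 -0.61, Atp5o -0.68, Cox6a1 -0.25, Cox6b1 -0.10, Cox7a2 -0.056, Cox7a2l -0.40, Cox8a -0.38, Ndufa9 -0.32, Ndufs8 -0.22, Sdhb -0.36 and Uqcrc2 -0.27. For day 21 against day 14 they were Atp5c1 0.010, Atp5g2 0.15, Atp5g3 0.017, Cox8a 0.21 and Sdhb 0.031, and for day 21 against day 0 Atp5j -0.35.

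As each library was left out in turn, the counts of members called higher and lower ran from 2 to 8 and 12 to 36 for day 7 against day 0, 61 to 73 and 2 to 2 for day 14 against day 7, 1 to 1 and 16 to 67 for day 21 against day 14, 47 to 61 and 6 to 9 for day 14 against day 0, and 8 to 19 and 5 to 14 for day 21 against day 0. A time left with 1 library was assumed to vary like the others. Of 138 called results of named genes, 60 held in every setting.

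The differences between replicate 1 and replicate 2 correlated between times at -0.04 to 0.07 across genes. A low correlation cannot show whether equal replicate numbers share a culture or animal, since technical differences could hide it. With the replicate number as a block the counts of higher and lower members were 5 and 26, 70 and 2, 1 and 51, 54 and 7, and 13 and 12 in the order day 7 against 0, 14 against 7, 21 against 14, 14 against 0 and 21 against 0.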
